A study of Drosophila melanogaster with 8 samples.

Results

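The larval early-late switch genes are Imp, Syp, chinmo, lin-28, br and Eip93F, 6 genes of the 17684 that the annotation places on the chromosome arms used here. They were taken from a list of names that was chosen with earlier results of these data known. Their counts are therefore not an unbiased comparison with other genes. A peak was assigned to a gene when it lay within 1 kb of it, with gene limits from Release 6. Neither list states its build, so peak positions were assumed to be on that release. The measurement was the genomic binding of Deadpan (Dpn), a bHLH transcription factor of the Hes family that marks neuroblasts (NBs), the neural stem cells of the fly. In 3rd instar larval brains it was profiled in 4 groups with 2 biological replicates each, which are pools of dissected brains, and each pair of groups gave 1 averaged list of peaks. For the medulla NB list, Dpn-GFP larvae were compared with larvae of the w1118 background, which carry no GFP tag. Both were crossed to TaDaM-traNLS-vhhGFP, tub-GAL80ts and eyR16F10-GAL4. In this NanoDam design a nanobody brings the bacterial methylase Dam to the tagged protein, which comes from a BAC under its own control, and Dam marks GATC sites nearby. The driver is described as expressed in medulla neurons as well as in NBs, and a figure legend of the paper gives few superficial NBs in the larva. For the pan-NB list, Dam-Dpn, made from the FlyORF-Dpn-3xHA line, was compared with Dam alone, both driven in all NBs by wor-GAL4 with tub-GAL80ts. This is Targeted DamID (TaDa), in which the fusion protein is supplied by the driver. Technique and cell population change together between the lists and cannot be told apart. The lists hold binding peaks and no expression, so the labelled cell type could not be checked against markers. The lists carry no value per replicate, so no difference below has a replicate error or a test.

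The switch genes time the life of NBs in the central brain and ventral nerve cord. Imp and Syp encode RNA-binding proteins that oppose each other: Imp is high in young larval NBs and Syp in old ones. Among the mRNAs they act on is that of chinmo, which encodes a BTB zinc finger transcription factor of early-born neurons. lin-28 encodes an RNA-binding protein of early NBs and is known from worms and mammals as a block to the maturation of let-7. br, the Broad gene, encodes a family of BTB zinc finger factors, and Eip93F encodes E93, a helix-turn-helix factor. Both are induced by the steroid hormone ecdysone and appear late. Medulla NBs are known for another temporal series, which runs through Hth, Ey, Slp, D and Tll.

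Dpn peaks lay within 1 kb of 5 of the 6 switch genes in the medulla NB list and of all 6 in the pan-NB list. Eip93F was without a medulla NB peak. Among all genes of the annotation, 22.2% had a medulla NB peak, 26.3% had a pan-NB peak and 15.8% had both, against 5 of the 6 switch genes with both. Long genes have more room for peaks, and every member apart from lin-28 is among the longest 10% of the protein-coding genes. Of these long genes, 45.7% had a medulla NB peak, 52.5% a pan-NB peak and 39.1% both. The members held 30 of the 3474 medulla NB peaks and 32 of the 4282 pan-NB peaks. Within 1 kb of the members these peaks covered 38010 bp in the medulla NB list and 44883 bp in the pan-NB list. br alone held 16735 bp of the medulla NB length and 18521 bp of the pan-NB length. Much of this came from lower-scoring peaks. With the higher-scoring 50% of each list br had 6050 bp in the medulla NB list and 7605 bp in the pan-NB list, less than Syp with 7056 bp and 9754 bp in the same order.

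**Figure D1:**
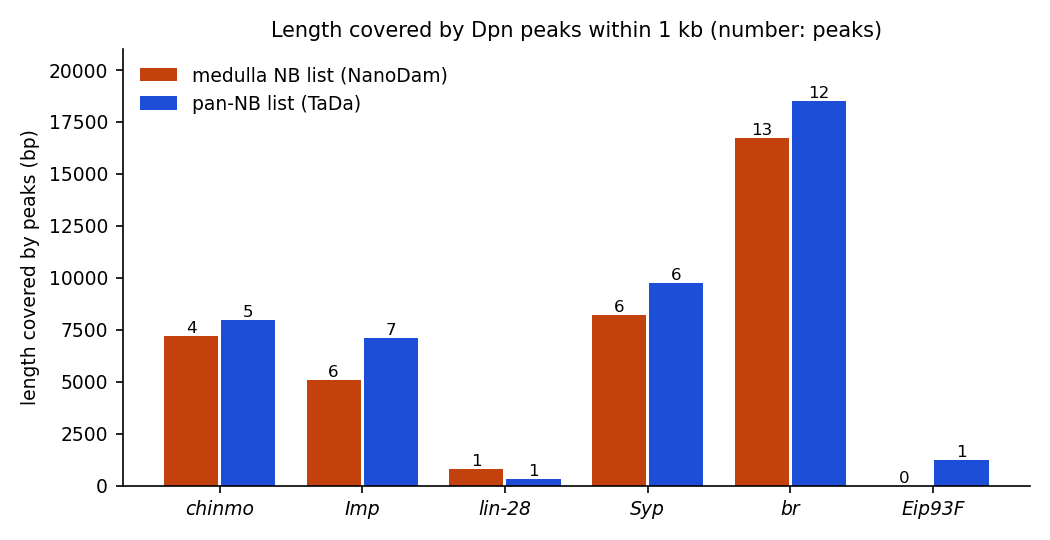
Length in bp covered by peaks within 1 kb of each switch gene (vertical axis), in the medulla NB list (orange bars) and the pan-NB list (blue bars), with the number of peaks above each bar. Each bar is 1 averaged list, so there is no error bar. br stands highest with 16735 bp and 18521 bp, an order that does not hold in the higher-scoring 50% of each list, and Eip93F has 0 peaks in the medulla NB list.

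Within the genes, the peaks were not spread evenly, and most of them recurred in both lists. The map of the 6 loci shows this with each gene laid out by its chromosome coordinates, as the annotation used gives neither strand nor exons. Of the 30 medulla NB peaks, 25 lay wholly inside a member, 3 crossed a gene end and 2 lay beside the gene. Of the 32 pan-NB peaks, 28 lay inside, 3 crossed an end and 1 lay beside the gene. Peaks are described below with their score, a value given by the peak caller that has no stated scale. Scores are not comparable between the lists, so ranks among the 3474 medulla NB peaks or the 4282 pan-NB peaks are given.

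**Figure D2:**
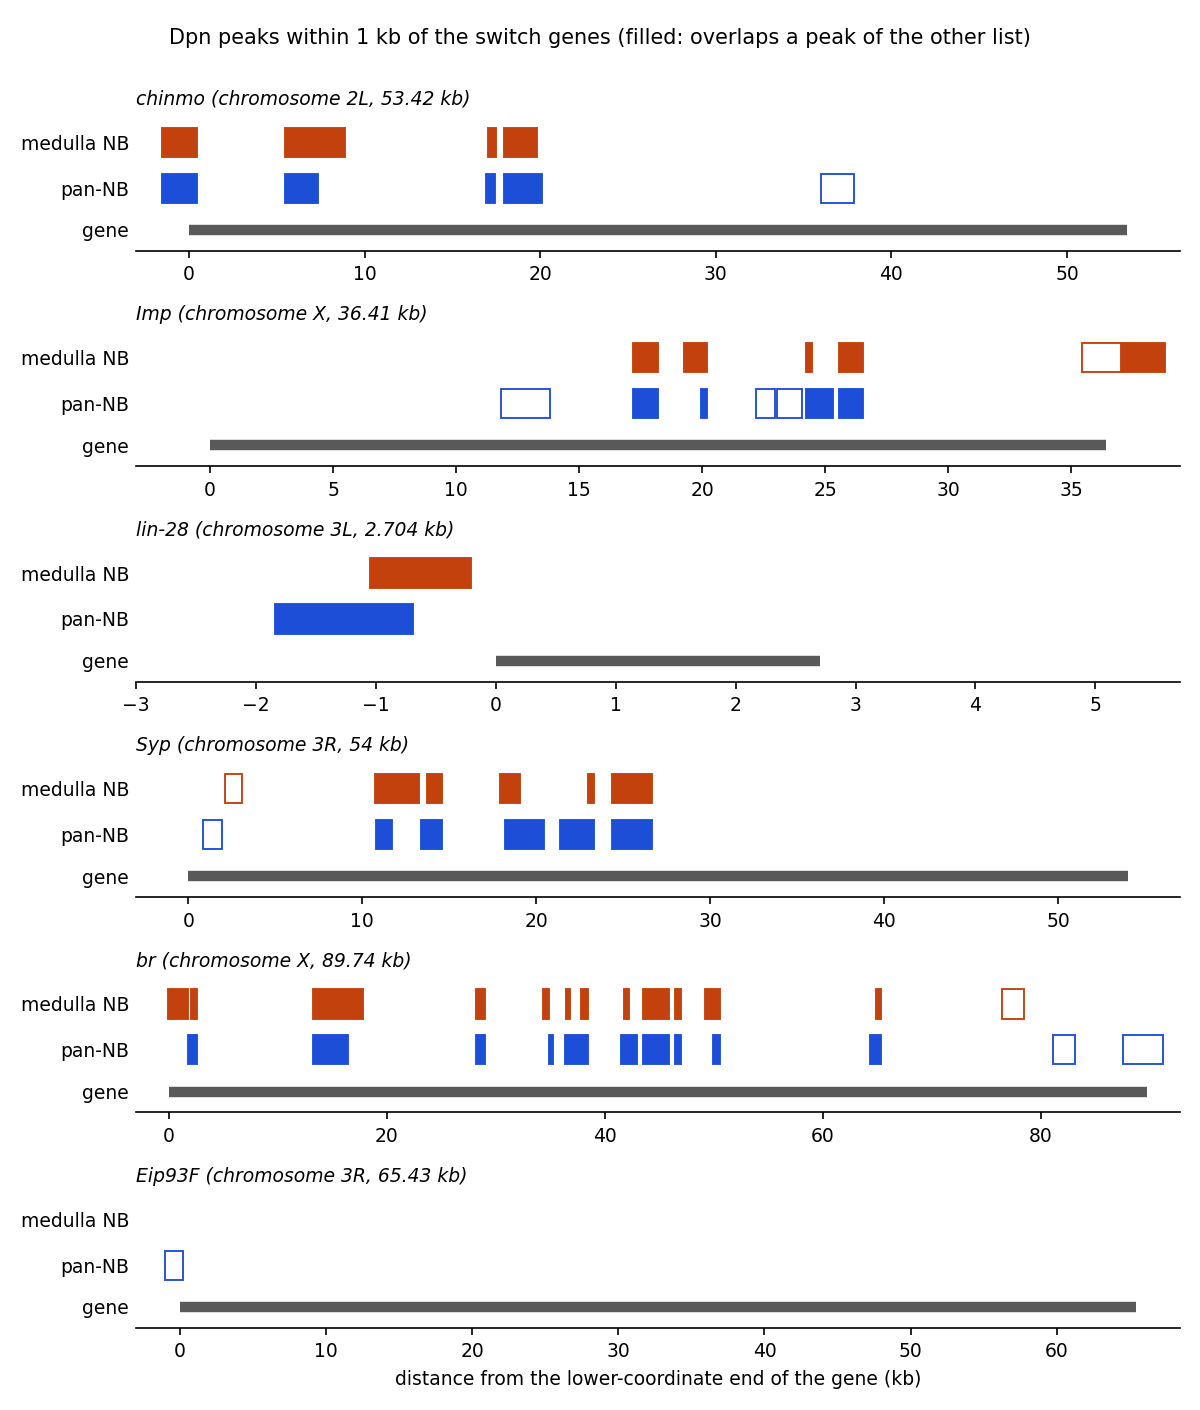
Peaks within 1 kb of the 6 switch genes, in the medulla NB list (upper row, orange) and the pan-NB list (middle row, blue), over the gene (grey bar). The horizontal axis is the distance in kb from the lower-coordinate end of each gene. A filled box overlaps a peak of the other list by at least 1 bp and an open box does not. Most peaks at chinmo, Syp and br overlap a peak of the other list. Within 1 kb of the higher-coordinate end of Imp only the medulla NB list has peaks, and Eip93F has 1 open pan-NB box.

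chinmo lies on 2L and is 53.4 kb long. All 4 of its medulla NB peaks had a pan-NB partner, and 1 of its 5 pan-NB peaks was in that list alone. A peak with identical limits in both lists, from 1649740 to 1651733, crossed the lower-coordinate end of the gene. It had rank 831 in the medulla NB list and rank 493 in the pan-NB list. The highest-scoring peaks lay about 17 kb into the gene. In the medulla NB list this was the peak from 1668292 to 1668718, with a score of 7.76 and rank 529. In the pan-NB list it was the peak from 1668152 to 1668666, with a score of 7.1 and rank 288. A wider peak followed at once in both lists, starting at 1669205 and ending at 1671070 in the medulla NB list and at 1671333 in the pan-NB list. The weakest shared site began at 1656708 and had rank 2507 in the medulla NB list and rank 1672 in the pan-NB list. The pan-NB peak without a partner, from 1687223 to 1689143, had rank 2425. Beyond 1671070 no medulla NB peak was listed over the remaining 33.6 kb, which is 62.9% of the gene. Covered length was 7205 bp in the medulla NB list and 7963 bp in the pan-NB list, and 59.2% of the union of both was common, the highest such share among the members.

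Imp lies on X and is 36.4 kb long, and its lists differed more. It had 6 medulla NB peaks covering 5073 bp and 7 pan-NB peaks covering 7122 bp, of whose union 25.4% was common. The peaks in the middle of the gene were mostly shared. The site from 10805066 to 10806051 had the same limits in both lists, with rank 1505 in the medulla NB list and rank 2495 in the pan-NB list. So had the site from 10813447 to 10814420, with ranks 2491 and 2643 in the same order. At the position 10812074 the medulla NB list held a peak of 255 bp with rank 1141, and the pan-NB list a peak of 1117 bp that was its highest-scoring at Imp, with rank 153. The 2 pan-NB peaks just before it, from 10810072 to 10810846 and from 10810911 to 10811920, had no medulla NB partner. Nor had the pan-NB peak from 10799675 to 10801682, which was 2008 bp wide with rank 3318 and an FDR of 0.00702. With an FDR below 0.001 that peak dropped out. Imp then had 5073 bp in the medulla NB list and 5114 bp in the pan-NB list. Within 1 kb of the higher-coordinate end the medulla NB list held more, while at 5 kb Imp had 7 medulla NB peaks and 9 pan-NB peaks. The 2 highest-scoring medulla NB peaks within 1 kb of Imp lay at this end. They ran from 10823310 to 10824881 across the gene end, with rank 511, and from 10824940 to 10826664 beyond it, with rank 613. The first had no pan-NB partner. The second overlapped a pan-NB peak from 10825414 to 10826664 that began 1136 bp beyond the gene and so fell just outside the 1 kb distance. This stretch is also within 1 kb of lncRNA:CR45624. Farther out, a peak from 10826844 to 10827666 had the same limits in both lists. It had rank 284 in the medulla NB list and rank 733 in the pan-NB list. At 5.32 kb beyond Imp the medulla NB list held its peak of rank 12, from 10829594 to 10830132. That peak overlapped a pan-NB peak and had no gene within 1 kb.

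lin-28 lies on 3L and, at 2.704 kb, is the shortest member. Neither list had a peak inside it. Each had 1 peak beside its lower-coordinate end, and these overlapped by 359 bp. The medulla NB peak ran from 5653627 to 5654472, 208 bp from the gene, with a score of 12.44. Its rank of 23 places it in the highest-scoring 0.662% of that list, and the next medulla NB peak at a member, at Syp, had rank 243. The pan-NB peak ran from 5652837 to 5653985, 695 bp from the gene, with a score of 7.18 and rank 254. The pan-NB peak also lay within 1 kb of Blimp-1, an ecdysone-induced zinc finger gene on the other side of the gap, and the medulla NB peak did not. The window edge at 1 kb cut the pan-NB peak, so the covered length was 792 bp in the medulla NB list and 305 bp in the pan-NB list. The next medulla NB peak on either side was 94.1 kb away, and the next pan-NB peak 8.96 kb away.

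Among the late members, only Syp had equal numbers of peaks in both lists. It lies on 3R, is 54.0 kb long, and had 6 peaks in each list, 5 of them shared in each. All of them lay in the lower-coordinate part of the gene, and the remaining 27.3 kb, which is 50.6% of its length, held no peak in either list. The medulla NB peaks had ranks 243, 399, 571, 1750, 1068 and 307 in the order of their coordinates, and the pan-NB peaks had ranks 691, 377, 422, 486, 795 and 472. In the medulla NB list 4 of the 6 peaks at Syp were among the highest-scoring 25% of the list, and in the pan-NB list all 6 were. The site from 20781104 to 20783385 had the same limits in both lists. The first peak of each list was the unshared one. In the medulla NB list it ran from 20758807 to 20759834 and in the pan-NB list from 20757540 to 20758661, so they were neighbours that did not touch. Both lay at CG31195, a gene inside Syp, and the pan-NB peak was within 1 kb of CG42322 as well. Takl1, also inside Syp, was within 1 kb of 3 further peaks. Covered length was 8205 bp in the medulla NB list and 9754 bp in the pan-NB list, and 41.1% of the union was common.

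br lies on X and, at 89.7 kb, is the longest member. It had 13 medulla NB peaks and 12 pan-NB peaks, more than any other member. Only 4 protein-coding genes had more peaks in the medulla NB list and 6 in the pan-NB list. All 25 peaks also lay within 1 kb of Mur2B, whose annotated span contains that of br, so the lists do not assign them to br alone. Mur2B had further peaks beyond br in both lists, so it is itself among the genes with more peaks. The densest stretch was in the middle of the gene. Between 1609413 and 1625714 there were 7 medulla NB peaks and 6 pan-NB peaks, all of them shared, with gaps of less than 5 kb. The first medulla NB peak and the first pan-NB peak of this stretch had only a single base in common. The highest-scoring medulla NB peak of br was there, from 1612911 to 1613562, with a score of 8.93 and rank 297. It lay within a pan-NB peak from 1611461 to 1613562 of rank 799, which also spanned a second medulla NB peak. The highest-scoring pan-NB peak of br was close by, from 1621568 to 1622068, with a score of 6.44 and rank 600, and its medulla NB partner had rank 727. The pan-NB peaks of that stretch all carried an FDR of 3.7e-44, as the caller gives neighbouring peaks a common value in places. Outside it, a site from 1603298 to 1604103 had the same limits in both lists. In 2 places the overlap was a single base, where a peak of one list began at the base on which a peak of the other ended. The unshared peaks were all near the higher-coordinate end. They were the medulla NB peak from 1651540 to 1653620, of rank 3278, and the pan-NB peaks from 1656214 to 1658246, of rank 3735, and from 1662654 to 1666344, of rank 3318. The last of these crossed the gene end and was within 1 kb of dor.

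Eip93F, on 3R and 65.4 kb long, had the fewest peaks. It had 0 medulla NB peaks and 1 pan-NB peak. That peak ran from 21948056 to 21949331 across the lower-coordinate end of the gene and covered 1218 bp within 1 kb of it, 0.333% of the gene itself. Its score of 7.47 gave it rank 153, the same score and rank as the highest-scoring pan-NB peak of Imp and higher than any pan-NB peak of the other members. The other 99.7% of the gene held no peak. The nearest medulla NB peak was 8.41 kb from the gene, from 22022950 to 22025064, with rank 3314. Of the longest 10% of protein-coding genes, 59.7% had less pan-NB length covered than Eip93F. Most of these were genes without any pan-NB peak, as only 52.5% of the longest 10% had one. A list of peaks holds only what passed the threshold, so a count of 0 does not measure how little signal there was.

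Most peaks of the switch genes had a partner in the other list. In the medulla NB list 27 of their 30 peaks (90%) had a pan-NB partner, beside 69.6% in the whole list and 71% within 1 kb of the longest 10% of genes. In the pan-NB list 24 of their 32 peaks (75%) had a medulla NB partner, beside 55.1% in the whole list and 58.7% at the longest genes. High-scoring peaks are shared more often, and 21 of the 30 medulla NB peaks and 21 of the 32 pan-NB peaks were in the higher-scoring part of their list, above its median. The shares over all peaks, weighted to the scores of the members' peaks in bins of 25% of each list, were 78.1% for the medulla NB list and 64.2% for the pan-NB list. With an overlap of at least 50% of the peak's own length, 70% of the members' medulla NB peaks and 50% of their pan-NB peaks were shared, beside 57.3% and 44.3% over all peaks in the same order. In the higher-scoring 50% of each list 81% of the members' medulla NB peaks and 71.4% of their pan-NB peaks were shared. Over all peaks of that part the shares were 72.3% and 56.9%. Among the overlapping pairs at the members, 2 had a single base in common. Neighbouring peaks of a gene are not independent, and the differences from the other peaks were not tested. Over all members 40.1% of the union of covered length was common to both lists, and over the whole lists it was 30.2%. Gene by gene, the median common share was 54.8% over the 2802 genes with a peak in both lists. Of the 5 members among them, Imp, lin-28, br and Syp lay below that median, and chinmo lay above it. These shares count only the parts of peaks within 1 kb. That limit cuts the pan-NB peak at lin-28 and leaves out the pan-NB peak just beyond Imp.

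Overlapping peaks often differed in their standing. They formed 27 pairs, in 19 of which the pan-NB peak stood nearer to the top of its list by rank as a percentage of the list, and in 8 the medulla NB peak. In 2 of the 27 pairs, both at br, the overlap was a single base, and by percentage both counted for the pan-NB list. Some pan-NB peaks of br had 2 partners and so entered 2 pairs. A percentage favours the longer pan-NB list, and rank itself favours the shorter medulla NB list. By rank itself, a measure added after seeing the data, the pan-NB peak was ahead in 15 of the 27 pairs and the medulla NB peak in 12. Over all 2460 overlapping pairs of the lists, the pan-NB peak was ahead in 55.1% by percentage and in 40.5% by rank itself, so which list leads over all pairs turns on the measure. The widest gaps were at the Syp site starting at 20774621, among the first 50.4% of the medulla NB list and the first 11.3% of the pan-NB list, and at br. The first br peak, from 1575076, was among the first 65.3% of the medulla NB list, and its single-base partner was among the first 26.9% of the pan-NB list. That partner also had 554 bp in common with the br peak from 1577113, which was among the first 15.1% of the medulla NB list. In the other direction, the br peak from 1640015 was among the first 33.2% of the medulla NB list, and its partner among the first 69.6% of the pan-NB list. lin-28 stood near the top of both.

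**Figure D3:**
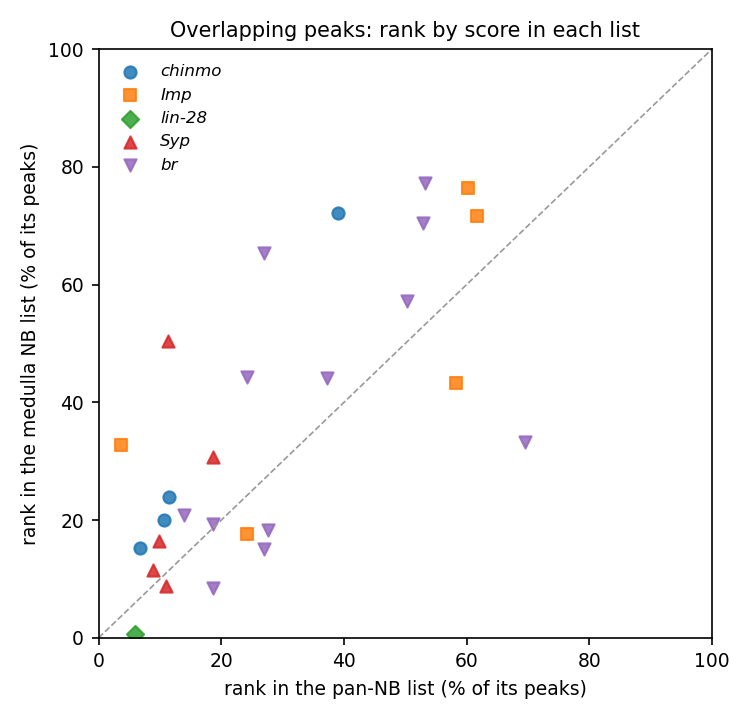
Rank by score of the 27 pairs of overlapping peaks at the switch genes, as a percentage of the peaks of each list, for the medulla NB list (vertical axis) and the pan-NB list (horizontal axis). Each point is 1 pair, its marker shows the gene, and low values are high scores. By this percentage, 19 points lie above the dashed line of equal standing and 8 below it, and lin-28 is in the lower left corner.

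The members are also grouped by the period in which they act. The early genes chinmo, Imp and lin-28 had 11 medulla NB peaks covering 13070 bp and 13 pan-NB peaks covering 15390 bp. The late genes Syp, br and Eip93F had 19 medulla NB peaks covering 24940 bp and 19 pan-NB peaks covering 29493 bp. The medulla NB part of the summed length was 45.9% at the early genes and 45.8% at the late genes, beside 44.8% over the whole lists. br made up most of the late sum. Gene by gene it was 47.5% at chinmo, 41.6% at Imp and 72.2% at lin-28, and 45.7% at Syp, 47.5% at br and 0% at Eip93F. The median over the 5772 genes bound in at least 1 list was 46.3%, with quartiles of 0% and 67.4%. The value at lin-28 turned on the distance, as its pan-NB peak is cut at 1 kb. At 5 kb lin-28 had 846 bp in the medulla NB list and 1149 bp in the pan-NB list, a medulla NB part of 42.4%. With 3 genes in each group, no test was made between early and late.

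The long members other than Eip93F had much peak length for long genes. The longest 10% of protein-coding genes reach up from 14.6 kb with no upper bound, so they are not matched to the members in length. Genes without a peak count as having less in the shares that follow. Among them, 99.1% had less medulla NB length covered than br, 95.8% less than Syp, 94.3% less than chinmo and 89.3% less than Imp. For pan-NB length the shares were 99.3% below br, 96.6% below Syp, 93.5% below chinmo and 91.9% below Imp. Among the 1392 protein-coding genes of its length class, a bin of 10%, lin-28 had more medulla NB length than 85.8% and more pan-NB length than 78.8%. Of that bin 21.4% had a medulla NB peak and 23.4% a pan-NB peak. Peaks covered 18.6% of br, 15.2% of Syp, 11.6% of chinmo and 11.3% of Imp in the medulla NB list. In the pan-NB list they covered 19.5% of br, 18.1% of Syp, 13.0% of chinmo and 19.6% of Imp.

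**Figure D4:**
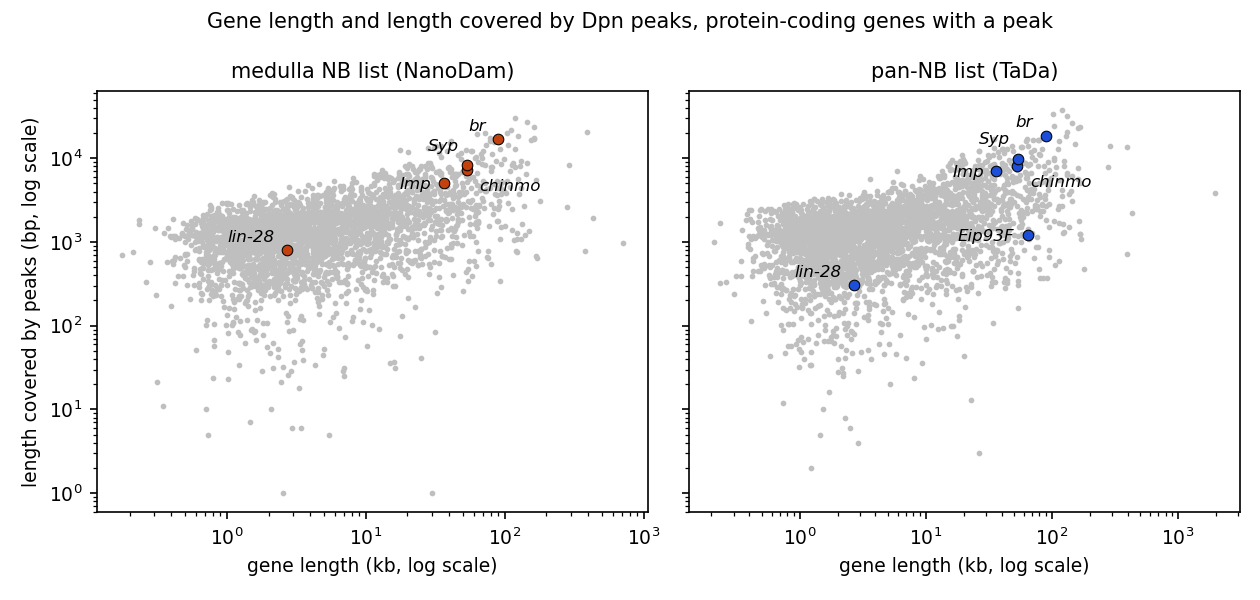
Length covered by peaks within 1 kb (vertical axis, bp, log scale) against gene length (horizontal axis, kb, log scale) for protein-coding genes with a peak in that list (grey points), in the medulla NB list (left) and the pan-NB list (right). Coloured points are the switch genes. br, Syp, chinmo and Imp lie in the upper part of the cloud in both, and Eip93F is drawn on the right alone, since it had 0 bp in the medulla NB list.

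Peaks at other timing genes were counted over a pair of lists chosen by hand, with earlier results of these data known. Their counts are therefore not an unbiased comparison with the shares of all genes. Of 10 partners of the switch, 8 had a medulla NB peak, 10 a pan-NB peak and 8 both, and 7 of the 10 are among the longest 10% of protein-coding genes. Beside this stand 22.2%, 26.3% and 15.8% of all genes, and 45.7%, 52.5% and 39.1% of the longest 10%, in the same order. The highest-ranking in the medulla NB list was pros, the homeobox gene for differentiation of daughter cells, with 11 medulla NB peaks, the first of rank 16, and 7 pan-NB peaks. It was followed by brat, a translational repressor, with 5 medulla NB and 4 pan-NB peaks, then by mamo, a zinc finger gene that acts after chinmo in mushroom body neurons, with 6 and 3 peaks, and by grh, with 6 and 9 peaks in the same order. Without a medulla NB peak were Myc, the growth regulator, and lncRNA:let7C, the transcript that carries let-7 and miR-125, which are known to act on chinmo mRNA. Of 11 ecdysone response genes, 8 had a medulla NB peak, 8 a pan-NB peak and 6 both, beside the same shares of all genes and of the longest 10%, to which 10 of the 11 belong. Eip75B led with 7 medulla NB peaks, the first of rank 14, and 12 pan-NB peaks, and EcR, the ecdysone receptor gene, had 4 and 6, ftz-f1 1 and 1, and Hr4 2 and 2. Hr3 had none in either list. In this group Blimp-1 had the pan-NB peak beside lin-28 as its only peak, and Eip74EF, an ecdysone-induced Ets gene, had 1 medulla NB peak of rank 3129 and 0 pan-NB peaks.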

How the data were processed

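DamID profiles of Dpn came from 8 samples of larval brain. The authors aligned the reads with damidseq_pipeline, and averaged replicates into binding profiles. Their methods describe find_peaks run on each replicate (min-quant 0.8, minimum setting for unified peaks, FDR below 0.01), while the lists used here are named as averages. How the 2 fit together is not stated. The sources used here name neither tool versions nor a build, and peak positions were assumed to be on Release 6. The deposited lists give for each peak a position in bp, a score of the peak caller and an FDR. Averaging leaves no replicate error. The authors state an intended depth per sample, and the depth reached is unknown.

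Peaks on 6 arms were kept, which left out 7 pan-NB peaks on Y. Gene limits came from the RefSeq table of Release 6 and are not printed. It holds neither sequence, strand nor exons, so the planned promoter windows, motifs and distances to start sites were not run. Shared means at least 1 common bp. Covered length counts the parts of peaks within 1 kb of a gene. Bins of gene length hold 10% of the 13922 protein-coding genes each. The overlap counts were tested on simulated intervals. Named genes are the members, neighbours within 1 kb of their peaks, and in the other lists up to 4 genes with the highest medulla NB rank and those without any peak; Myc, lncRNA:let7C, Blimp-1 and Eip74EF were added after their values were seen. Members and lists were chosen with earlier results of these data known. Alternatives were the distance, the FDR, list length, joining of peaks, the overlap and the genes counted. Python 3.11.15, numpy 2.4.6 and pandas 2.3.3 were used.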

Additional observations from a re-analysis of the deposited data

How the results depend on the processing

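Of the switch genes, 5 kept a medulla NB peak and 6 a peak in the pan-NB list at 5 kb, with an FDR below 0.001, with the higher-scoring 50% of each list, with 1737 peaks in both lists and with peaks closer than 500 bp joined. With peaks that overlap the gene itself, lin-28 dropped out, which left 4 genes with a medulla NB peak and 5 with a peak in the pan-NB list. The pan-NB peaks at the members fell to 21 with the higher-scoring 50% of each list and to 21 with 1737 peaks in both lists. These settings keep fewer peaks by construction. Under both, br had 6050 bp in the medulla NB list and 7605 bp in the pan-NB list, below Syp. At 5 kb the covered length at lin-28 was 846 bp and 1149 bp in the same order. By rank itself, chosen after seeing the data, the pan-NB peak was ahead in 15 of 27 pairs. With at least 50% of a peak covered, 70% of the medulla NB peaks and 50% of the pan-NB peaks at the members were shared. With 1737 peaks in both lists the shares at the members were 81% and 71.4%, beside 64.1% and 61.9% over all peaks. The medulla NB part of the covered length stayed between 42.8% and 46.7% in all settings run. Of the protein-coding genes alone, 23.1% had a medulla NB peak. No paired analysis was possible because each list averages its replicates, and for the same reason no replicate could be left out. The depth reached per sample is unknown, and peaks below the threshold are not listed. Absence of a peak, as at Eip93F in the medulla NB list, therefore gives no upper limit of binding.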
